A study of Arabidopsis thaliana with 47 samples.

Results

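The root meristems of a pair of Arabidopsis thaliana lines were compared under a high dose of the peptide hormone RGF1 (root meristem growth factor 1). One line was the plt2 mutant, and the other, called gPLT2 here and plt2/gPLT2-GFP in the labels, was the same mutant with a genomic copy of PLT2 (PLETHORA 2) fused to GFP. Both lines therefore carry the plt2 mutation, and both were treated with 5 nM RGF1 for 24 h. The comparison rests on 11 of the 47 samples of the series, 5 of plt2 and 6 of gPLT2, picked by their labels. Seedlings grew for 6 days before the treatment, and RNA came from the dissected meristematic zone, with 50 root sections in each sample. The same lines under mock treatment and at 0.3 nM RGF1 (n = 5 in each group) served for reference. The number of independent transgenic lines is not given in the sources used here, so an effect of the transgene and other differences between these lines cannot be told apart. Nothing in the labels says that replicates came from separate cultures, so the p-values measure the spread between these samples, which may be technical.

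PLT2 is an AP2-type transcription factor that acts with its relatives in a graded manner along the root tip, keeping stem cells and dividing cells where it is abundant. RGF1 is a secreted, tyrosine-sulfated peptide that is perceived by leucine-rich repeat receptor kinases and signals through a MAP kinase cascade, and it enlarges the region in which PLT proteins are found. Cells that leave this region stop dividing, replicate their DNA without mitosis, expand and differentiate. The comparison asks which transcripts differ between the line with the PLT2 transgene and the mutant without it when the peptide is plentiful.

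The 11 libraries held 8356926 to 10332541 counts each. Mitochondrial loci took 53.45% to 64.17% of the counts of a plt2 library and 49.52% to 69.06% of those of a gPLT2 library, and 14 loci, ribosomal RNA among them, were set aside for the levels given below. Between 3108975 and 4737701 counts per library then remained, so that 3 counts corresponded to 0.633 to 0.965 CPM (counts relative to library size, TMM-scaled). The first principal component, with 55.2% of the variance, put every gPLT2 library between -46.55 and -28.37 and every plt2 library between 32.04 and 51.95. No library of either line lay on the other side.

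At 5 nM the lines differed widely. Of 16094 genes tested, 6189 (38.5%) passed an adjusted p of 0.05, here termed called, with 2858 higher in gPLT2 (17.8% of the genes tested) and 3331 lower (20.7%). The difference reached 2-fold for 545 of the higher and 866 of the lower genes. The median log2 fold change of all genes was 0.02, which is the value to set beside the medians of the gene lists below. Transcripts were measured in bulk, so a smaller number of cells of a type and less RNA per cell cannot be told apart anywhere in these results. The counts of called members below are read against these shares.

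PLT2 itself followed the labels. The plt2 libraries held 4.19, 6.2, 6.62, 6.21 and 5.22 CPM, and the 6 gPLT2 libraries held 47.5 to 64.5 CPM with a median of 55.2. The lowest gPLT2 library thus stood far above the highest plt2 library. The log2 fold change was 3.22 (SE 0.14, adjusted p 8.27e-13). The counts do not separate endogenous from transgenic transcript.

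Within the PLETHORA family, 5 of 8 members could be tested, 1 (PLT2) was higher and 1 was lower. PLT1, the closest partner of PLT2 in root stem cell maintenance, held 30.2, 27.9, 36.9, 23.7 and 26.6 CPM in plt2 and 5.23 to 9.07 CPM (median 7.52) in gPLT2. The groups did not overlap, and the log2 fold change was -2.01 (SE 0.17, adjusted p 1.26e-08). AIL6, also known as PLT3, was at 141 ± 14.3 CPM in plt2 (SD, n = 5) and 124 ± 10.5 CPM in gPLT2 (n = 6), a log2 fold change of -0.23 that was not called (adjusted p 0.0599) but was called without plt2 replicate 5 (adjusted p 0.0423) and with the mitochondrial share in the model (adjusted p 0.0336). BBM, also a PLETHORA-type factor, had a value of -0.43 (adjusted p 0.0951) and AIL5 one of 0.14 (adjusted p 0.752). Scaled for gene length in the authors' FPKM, AIL6 was the most abundant of the family in both lines, at 45.1 and 38.8, with PLT2 at 23.5 ± 2.61 and PLT1 at 3.01 ± 0.67 FPKM in gPLT2. AIL7, ANT and AT1G72570 were too low to be tested.

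The peptide genes RGF2 and RGF3 were lower in the line with PLT2. Of the 9 precursor genes and TPST, the enzyme that sulfates these peptides, 5 were tested, 0 were higher and 4 were lower, with a median log2 fold change of -0.71. RGF3 held 89.2, 60.3, 64.3, 38.0 and 64.3 CPM in plt2 and between 7.04 and 20.4 CPM (median 10.6) in gPLT2. RGF2 held 15, 11.3, 14.5, 10.3 and 10.2 CPM in plt2 and between 1.21 and 2.39 CPM (median 2.04) in gPLT2. Neither gene had overlapping groups, and the log2 fold changes were -2.50 (SE 0.22, adjusted p 2.4e-08) for RGF3 and -2.71 (SE 0.24, adjusted p 2.19e-08) for RGF2. Transcripts of RGF1 itself were near the limit of 3 counts, at 3.81 ± 2.01 CPM in plt2 and 0.77 ± 0.68 CPM in gPLT2, and did not enter the test. RGF8 (-0.71, adjusted p 0.0213) and TPST (-0.39, adjusted p 0.00946) were lower with overlapping libraries, and both calls were lost under total-count scaling. RGF8 was also not called without plt2 replicate 1 or 4 (adjusted p 0.0746 and 0.06). RGF4 did not differ detectably (-0.07, adjusted p 0.75).

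The 5 loci listed with the RGF1 receptors, which RefSeq describes as leucine-rich repeat receptor-like kinases, moved in both directions. AT5G48940 was higher in gPLT2, with 70.0, 76.9, 76.0, 97.5 and 92.2 CPM in plt2 against 174 to 231 CPM (median 215) in gPLT2, a log2 fold change of 1.29 (SE 0.10, adjusted p 7.1e-09). AT4G26540 was lower, with 81.4, 79.5, 71.0, 76.2 and 78.7 CPM in plt2 against 18.1 to 31.3 CPM (median 22.5) in gPLT2, a log2 fold change of -1.76 (SE 0.12, adjusted p 5.61e-10). The libraries of both lines were apart at either locus. AT3G24240 (0.93, adjusted p 3.93e-08) and AT1G34110 (0.86, adjusted p 1.68e-07) were higher, and AT5G56040 (-1.16, adjusted p 7.94e-09) was lower. In FPKM, which allows the loci to be compared with each other, the 5 stood between 19.5 and 32.7 in plt2. In gPLT2, AT3G24240 and AT5G48940 were at 55.8 ± 3.42 and 55.3 ± 5.36 FPKM and did not differ beyond their spread, followed by AT1G34110 at 35.8 ± 1.16, AT5G56040 at 14.8 ± 1.52 and AT4G26540 at 6.08 ± 1.23 FPKM. A locus on the opposite strand covers 71.6% of AT4G26540, and the use of strand in counting is not given in the sources used here.

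Of the 8 other genes on this list, 2 were higher and 2 lower. MPK3, a MAP kinase, was at 12.2 to 18.6 CPM in plt2 and 23.1 to 34.2 CPM in gPLT2, a log2 fold change of 0.86 (SE 0.14, adjusted p 6.69e-05). MKK5, a MAP kinase kinase, was at 54.8 to 64.0 CPM in plt2 and 32.3 to 45.1 CPM in gPLT2 (-0.65, SE 0.11, adjusted p 5.95e-05). AT2G12646, a PLATZ-type transcription factor locus, was at 24.3 to 34.1 and 45.8 to 59.6 CPM (0.83, SE 0.12, adjusted p 1.03e-05). None of these ranges overlapped. YDA, a MAP kinase kinase kinase, was lower by a small margin (-0.28, adjusted p 0.0321), a call lost under 3 settings of the processing and without any 1 of 6 libraries (adjusted p 0.0516 to 0.102). MKK4, MPK6 and the ubiquitin-specific proteases UBP12 and UBP13 were not called, with log2 fold changes between -0.30 and 0.02.

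**Figure D1:**
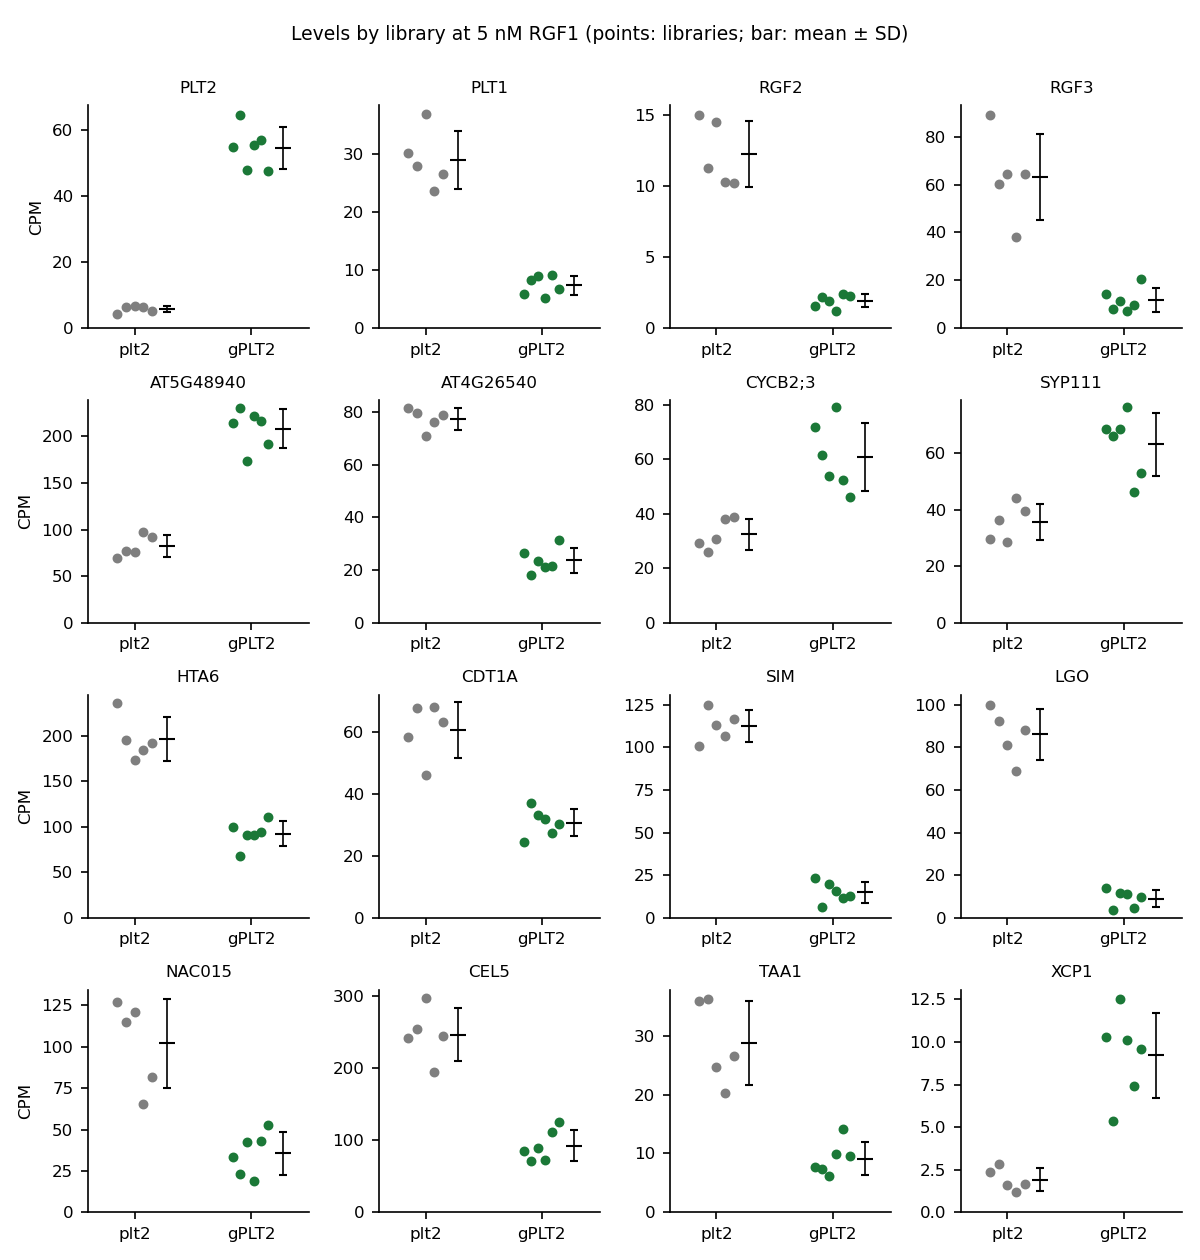
CPM of 16 genes in each library at 5 nM RGF1, with plt2 (n = 5) in grey, gPLT2 (n = 6) in green and the mean ± SD beside the points; axes start at 0. In each panel the libraries of the lines do not overlap, with PLT2 from 47.5 CPM upward in gPLT2 and SIM from 101 CPM upward in plt2.

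Among cell cycle genes, 15 of 26 mitotic genes were higher in gPLT2, 9 of 22 replication genes were lower and 16 of 18 histone genes were lower. Of 26 genes that act in G2 and M phase, all tested, 15 were higher and 0 lower, with a median of 0.39, against 17.8% of all genes higher. The summed level of the list was 686 to 804 CPM in plt2 and 920 to 1100 CPM in gPLT2, without overlap. CYCB2;3, a B-type cyclin, held 29.3, 25.9, 30.6, 38.2 and 38.7 CPM in plt2 and 46.3 to 79.1 CPM (median 57.5) in gPLT2. Its log2 fold change was 0.86 (SE 0.14, adjusted p 4.98e-05). SYP111, the syntaxin KNOLLE of the forming cell plate, was at 28.7 to 44.0 and 46.3 to 76.4 CPM (0.78, SE 0.13, adjusted p 9.51e-05), and CYCB2;2 (0.64, adjusted p 0.000119) and CYCB2;4 (0.55, adjusted p 0.00165) followed. The called members also included the mitotic kinases AUR2 (0.59), AUR3 (0.56) and CDKB2;1 (0.50), the spindle protein TPX2 (0.52) and the anaphase activator CDC20.2 (0.52), which were named after their values were seen. CYCA2;3 was the one member with a negative value (-0.24) and was not called. SYP111 shares 31.4% of its length with a gene on the opposite strand.

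Many plant mitotic genes carry the letters AACGG, the core of the MSA element that MYB3R factors bind, near their start. The 250 bases before the start of the 4 mitotic genes named by rule were read from the RefSeq TAIR10.1 genome and are shown because these genes moved together. Each is written 5′ to 3′ on the gene's own strand, and capitals mark AACGG or its complement CCGTT, with 3 matches for CYCB2;3, 1 for SYP111, 3 for CYCB2;2 and 0 for CYCB2;4. CYCB2;3 lies on chr1:7137829-7138078 (minus strand), SYP111 on chr1:2711001-2711250 (minus strand), CYCB2;2 on chr4:16901346-16901595 (plus strand) and CYCB2;4 on chr1:28630790-28631039 (minus strand).
CYCB2;3: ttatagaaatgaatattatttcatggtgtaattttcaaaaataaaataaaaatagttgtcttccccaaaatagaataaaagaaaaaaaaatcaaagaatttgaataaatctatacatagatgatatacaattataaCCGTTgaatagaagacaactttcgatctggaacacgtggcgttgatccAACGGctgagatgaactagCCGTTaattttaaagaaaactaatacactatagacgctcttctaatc
SYP111: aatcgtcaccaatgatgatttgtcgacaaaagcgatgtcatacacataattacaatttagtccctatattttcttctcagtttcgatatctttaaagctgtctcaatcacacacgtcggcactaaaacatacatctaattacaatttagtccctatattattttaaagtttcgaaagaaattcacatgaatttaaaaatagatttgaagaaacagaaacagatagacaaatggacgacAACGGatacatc
CYCB2;2: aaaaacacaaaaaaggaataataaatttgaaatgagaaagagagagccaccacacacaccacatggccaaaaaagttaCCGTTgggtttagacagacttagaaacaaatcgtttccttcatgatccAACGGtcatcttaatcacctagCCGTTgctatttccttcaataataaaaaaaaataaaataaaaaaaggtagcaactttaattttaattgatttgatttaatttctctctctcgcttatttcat
CYCB2;4: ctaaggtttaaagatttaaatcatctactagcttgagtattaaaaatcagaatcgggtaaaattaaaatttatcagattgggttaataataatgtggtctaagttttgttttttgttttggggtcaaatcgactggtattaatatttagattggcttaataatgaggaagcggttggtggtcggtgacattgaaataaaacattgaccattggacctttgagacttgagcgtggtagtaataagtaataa
Over windows from 250 bases before to 50 bases after the start, AACGG on either strand was found for 18 of the 26 mitotic genes (69.2%) and for 27.6% of the 15950 tested genes with a window. Among all genes higher in gPLT2 the share was 27.8%, and among those lower it was 26.2%. AACGG was also found for 9 of the 18 histone genes (50.0%) and 8 of the 22 replication genes (36.4%), lists with more members lower than higher. The E2F-type letters TTTCCCGC or TTTGGCGC, on either strand, stood in 45.5% of the 22 replication genes and in 0 of the 18 histone genes. They stood in 1.39% of all genes, in 1.05% of those higher and in 1.36% of those lower. These are counts of letters, not of bound sites.

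Of 22 genes of S phase and DNA replication, 1 was higher and 9 were lower, with a median of -0.29, against 20.7% of all genes lower. CDT1A, which licenses replication origins, held 58.4, 67.6, 46.0, 68.1 and 63.1 CPM in plt2 and 24.3 to 36.9 CPM (median 31.0) in gPLT2, without overlap (log2 fold change -1.02, SE 0.12, adjusted p 9.96e-07). TSO2, a ribonucleotide reductase subunit (-0.74, adjusted p 7.62e-05), and PCNA1, the sliding clamp (-0.57, adjusted p 0.000269), were lower too, while RNR1, the large subunit of the same reductase, was the one member that was higher (0.45). The MCM helicase genes were mixed, with MCM2 (-0.34) and MCM6 (-0.36) lower and MCM3 and MCM4 (both -0.13) not called. Under total-count scaling the called members of this list dropped from 10 to 4, and PCNA1 (adjusted p 0.0514) and CYCA3;1 were among those lost.

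Histone genes gave the more uniform result. Of 18 tested genes on the list of histones H2A, H2B and H3, 16 were lower and 0 higher, with a median of -0.76. The summed level of the list was 1920 to 2480 CPM in plt2 and 1180 to 1600 CPM in gPLT2. The only H3 loci on the list were HTR11 and HTR12, so these counts rest almost wholly on H2A and H2B genes. HTA6 held 237, 196, 174, 185 and 192 CPM in plt2 and 68.1 to 111 CPM (median 92.9) in gPLT2, a log2 fold change of -1.13 (SE 0.12, adjusted p 1.5e-07). HTA2 (-1.12) and RAT5 (-1.18) were lower too, with adjusted p of at most 0.000339. The variants HTA9 (0.08) and GAMMA-H2AX (-0.19) were not called.

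The inhibitors of cyclin-dependent kinases held some of the largest differences. SIM (SIAMESE), which blocks mitosis and starts repeated DNA replication, held 101, 125, 113, 107 and 117 CPM in plt2 and 5.96 to 23.5 CPM (median 14.3) in gPLT2. Its relative LGO held 99.9, 92.4, 81.0, 68.8 and 88.4 CPM in plt2 and 3.38 to 13.7 CPM (median 10.4) in gPLT2. The lowest plt2 library was thus more than 4-fold above the highest gPLT2 library for either gene. The log2 fold changes were -2.97 for SIM (SE 0.19, adjusted p 2.97e-10) and -3.33 for LGO (SE 0.21, adjusted p 2.68e-10). FZR2, an activator of the anaphase-promoting complex that drives cells out of the mitotic cycle, was lower as well (-1.53, SE 0.12, adjusted p 6.93e-09), and so were KRP2 (-1.68) and ICK5 (-0.79). In the other direction stood ICK3, a Kip-related inhibitor, at 2.69 to 5.36 CPM in plt2 and 11.3 to 15 CPM in gPLT2 (1.42, SE 0.20, adjusted p 8.67e-06), with AT2G32710 (0.67) and AT1G08180 (1.33). In all, 3 of 13 tested members were higher and 5 lower. Loci on the opposite strand overlap 45.4% of LGO and 42.7% of SIM. Of the D-type cyclins, which start the cycle, 1 of 6 was higher and 2 were lower, CYCD3;1 among them (-0.63, adjusted p 0.000873).

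**Figure D2:**
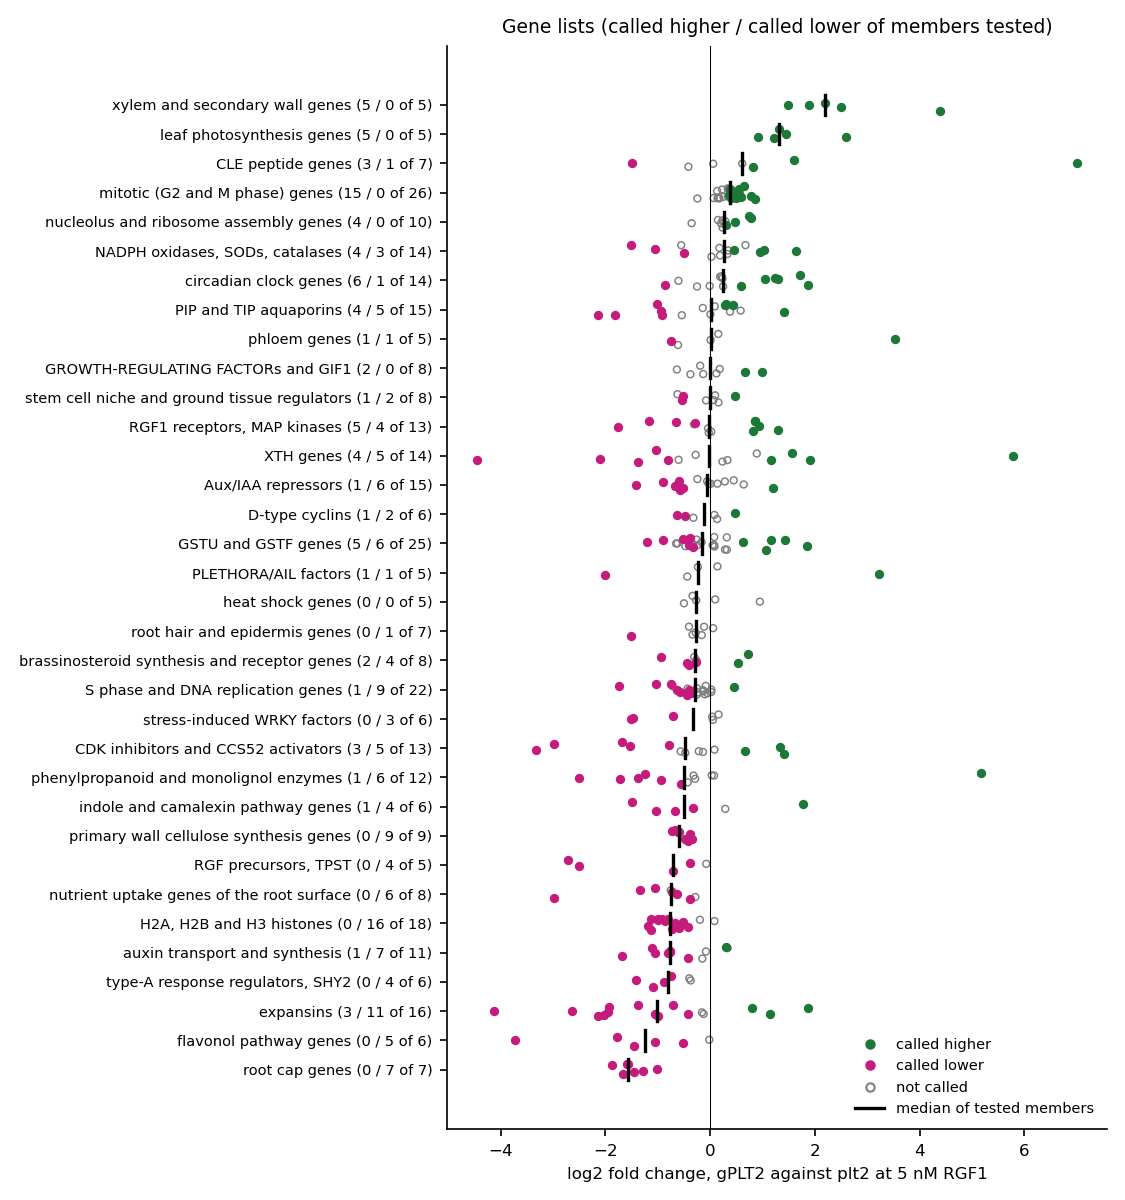
Log2 fold change of gPLT2 against plt2 at 5 nM RGF1 for each tested member (points) of the lists with at least 5 tested members, with the median as a bar and, beside each name, how many members were called higher and lower of those tested. Root cap, histone and cellulose synthesis genes lie almost wholly below 0, while mitotic genes lie mostly above it, with a median of 0.39.

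Of 8 tested GROWTH-REGULATING FACTOR genes and their coactivator, 2 were higher and 0 lower, and 4 of 10 nucleolar genes were higher. AN3 (GIF1), a coactivator of GROWTH-REGULATING FACTORs, was at 87.7 to 116 CPM in plt2 and 176 to 230 CPM in gPLT2 (0.99, SE 0.10, adjusted p 1.33e-07), and GRF4 (0.67) was the other called member of its list. The nucleolar and ribosome assembly list had 0 members lower and a median of 0.27. FIB1, the fibrillarin of ribosomal RNA methylation, was at 304 ± 33.1 CPM in plt2 and 541 ± 50.0 CPM in gPLT2 (0.79, adjusted p 2.86e-06). TOZ (0.75, adjusted p 4.55e-05) and the nucleolin NUC-L1 (0.48, adjusted p 0.00178) followed. The number of called nucleolar members was 7 in place of 4 without plt2 replicate 4, with the replicate block and with the mitochondrial share in the model. Stem cell niche and ground tissue regulators moved little: of 8, 1 was higher and 2 were lower, SHR (-0.52) and JKD (-0.53) among the latter, and the calls were lost under total-count scaling.

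Markers of the root cap were lower in gPLT2 throughout. All 7 were tested and 7 were lower, with a median of -1.57, and they remained 7 with any 1 library left out. NAC015 and NAC070, a pair of NAC factors of cap maturation, illustrate this. NAC015 held 127, 115, 121, 65.5 and 82.0 CPM in plt2 and 18.7 to 52.9 CPM (median 38.2) in gPLT2, a log2 fold change of -1.57 (SE 0.21, adjusted p 6.97e-06). The cellulase gene CEL5 was at 195 to 298 CPM in plt2 and 71.1 to 126 CPM in gPLT2 (-1.46, SE 0.14, adjusted p 8.84e-08), and NAC070 (-1.66) and CEL3 (-1.87) had similar values. The summed level of the list was 367 to 624 CPM in plt2 and 135 to 266 CPM in gPLT2. SMB (-1.02) and FEZ (-1.58), the NAC factors that set the division of cap stem cells, were lower too.

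Markers of other tissues were sparse. Of 13 xylem and secondary wall genes 5 passed the filter on low counts at 5 nM, against 2 under mock and 3 at 0.3 nM. These genes were close to the limit of 3 counts in plt2 and passed through gPLT2, so that all 5 being higher follows largely from the filter. XCP1, a xylem peptidase, was the most abundant, at 1.19 to 2.82 CPM in plt2 and 5.36 to 12.5 CPM in gPLT2 (2.20, SE 0.29, adjusted p 4.87e-06). The summed level of the whole list was 5.92 to 10.1 CPM in plt2 and 17.1 to 54.2 CPM in gPLT2, and 3 members were tested without gPLT2 replicate 1, 3, 4, 5 or 6. In the phloem, 2 of 5 tested genes were called, OPS (-0.74) lower and SEOR1 higher, the latter at 0 to 0.717 CPM in plt2 and 2.21 to 5.25 CPM in gPLT2. SEOR1 was thus close to the limit of 3 counts in plt2 and passed through gPLT2, so that its direction follows largely from the filter. The phloem calls numbered 1 without any 1 of gPLT2 replicates 1 to 5, 4 without plt2 replicate 5, and 5 with DESeq2. Of 7 tested root hair and epidermis genes 1 was lower, RHD2, the NADPH oxidase of hair growth (-1.51, SE 0.28, adjusted p 0.000196), and 2 were called without gPLT2 replicate 6 or plt2 replicate 3. The endodermal receptor kinase GSO1 was lower (-1.96, adjusted p 1.95e-05) and MYB36, a regulator of the Casparian strip, higher (0.76), and 8 of 11 endodermal genes were too low to be tested. These 2 endodermal calls became 1 without gPLT2 replicate 3 or plt2 replicate 4.

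Leaf photosynthesis genes, listed as markers of tissue that the dissection should not hold, also differed. Of 9 members 5 passed the filter on low counts and were called higher in gPLT2, a count that the filter favours because these genes were low in plt2. The Rubisco small subunit genes AT5G38410 and AT5G38420 were at or close to 0 CPM. Over the whole list the summed level was 15.5 to 25.5 CPM in plt2 and 48.8 to 72.1 CPM in gPLT2. Under mock the sums were 14.6 to 30.5 and 23.6 to 27.8 CPM, and at 0.3 nM they were 12.1 to 29.2 and 38.1 to 53.1 CPM. LHCA4, LHCB5 and CAO, which lie outside this list, were called higher in gPLT2 under mock (log2 fold changes 1.04, 1.32 and 1.76). They were named after their values were seen. CAB1, a chlorophyll-binding protein, was at 1.90 to 2.25 CPM in plt2 and 10.5 to 15.7 CPM in gPLT2 (2.59, SE 0.22, adjusted p 1.29e-08). These sums are small beside those of the mitotic or histone lists, and their part in the other differences was not tested.

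Genes of auxin transport and synthesis were mostly lower in gPLT2. Of 11 tested, 1 was higher and 7 lower, with a median of -0.76. TAA1, which makes the auxin precursor indole-3-pyruvate, held 20.3 to 36.3 CPM in plt2 and 6.23 to 14.1 CPM in gPLT2 (-1.68, SE 0.20, adjusted p 9.37e-07). Also lower, and without overlap, were YUC3, which acts after it (-1.11, adjusted p 0.000259), the efflux carrier PIN4 (-1.04, adjusted p 4.7e-06) and the influx carrier AUX1 (-0.77, adjusted p 3.11e-06). EIR1, an efflux carrier also known as PIN2, was not called (-0.15). Under total-count scaling 5 genes were called in place of 8. Among the Aux/IAA repressors 1 of 15 was higher, IAA2 (1.20, SE 0.15, adjusted p 1.84e-06), and 6 were lower, such as IAA16 (-0.90, adjusted p 2.42e-06).

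Response regulators that cytokinin induces were lower in part: of 6 tested with SHY2 on the same list, 0 were higher and 4 lower, with a median of -0.81. ARR6 was at 9.01 to 19.6 CPM in plt2 and 3.42 to 6.77 CPM in gPLT2 (-1.42, SE 0.24, adjusted p 8.63e-05), and ARR4 at 36.3 to 52.4 and 21.1 to 27.7 CPM (-0.87, SE 0.12, adjusted p 5.25e-06). AHP1, a phosphotransfer protein upstream of such regulators, was higher, from 4.51 to 8.12 CPM in plt2 and from 58.8 to 71.8 CPM in gPLT2 (3.31, SE 0.14, adjusted p 8.27e-13). Brassinosteroid genes were mixed, with the biosynthetic enzymes ROT3 (0.73, adjusted p 0.00307) and CPD (0.54, adjusted p 0.000634) higher and DWF4 (-0.94) and DWF1 (-0.44, adjusted p 0.00396) lower.

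Genes of wall loosening and wall synthesis were lower in gPLT2. Expansins, which loosen walls in growing cells, gave 3 higher and 11 lower of 16 tested, with a median of -1.02. EXLA2 was at 10.8 to 23.3 CPM in plt2 and 0.24 to 1.91 CPM in gPLT2 (-4.12, SE 0.33, adjusted p 5.46e-09), and EXLA1 (-2.63), EXPB1 (-2.13) and EXPA15 (-1.95) followed, with adjusted p of at most 6.81e-07. EXPA1 (1.15) and EXPA8 (1.87) were higher. All 9 genes of primary wall cellulose synthesis were lower, with a median of -0.59 and a range of -0.73 to -0.34. CESA6 (-0.73, adjusted p 4.86e-06) and CESA1 (-0.66, adjusted p 6.24e-06), catalytic subunits of the synthase, led this list. Under total-count scaling 5 of these 9 were called, and the median was still negative at -0.49.

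Xyloglucan-modifying XTH genes split, 4 higher and 5 lower of 14 tested. XTH16 held 54.5, 47.9, 59.6, 48.3 and 41.0 CPM in plt2 and 1.39 to 4.14 CPM (median 2.43) in gPLT2, a log2 fold change of -4.45 (SE 0.19, adjusted p 8.27e-13). XTH18 was lower (-2.11, adjusted p 1.09e-07), and TCH4 (1.90, adjusted p 9.02e-07) and XTH15 (1.56, adjusted p 5.24e-05) were higher. Reads of similar XTH genes may be split between copies. The aquaporin list split as well, 4 higher and 5 lower of 15, with PIP1;4 lower (-1.82, adjusted p 1.31e-08) and RD28 higher (1.41, adjusted p 0.000208). This list was found by symbol, and its 23 members include AT5G20350 (TIP1), which is not an aquaporin. Transporters of the root surface were lower, 0 higher and 6 lower of 8, with a median of -0.74. The phosphate transporter PHT1;1 was at 22.5 to 44.0 CPM in plt2 and 2.98 to 7.02 CPM in gPLT2 (-2.97, SE 0.21, adjusted p 1.51e-09). The ammonium transporter AMT1;1 (-1.05), the proton pump HA2 (-0.63) and the ferric reductase FRO2 (-1.34) were lower too, though a locus on the opposite strand covers 81.1% of AMT1;1.

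In redox metabolism, 4 of 14 genes were higher and 3 lower. The hydrogen peroxide-degrading catalases CAT1 (17 to 23.2 and 47.8 to 75.3 CPM, log2 fold change 1.64, SE 0.13, adjusted p 3.99e-09), CAT2 (0.95, adjusted p 1.12e-06) and CAT3 (1.02) were all higher. The superoxide-producing NADPH oxidases RBOH F (-1.05, adjusted p 1.89e-05) and RHD2 (-1.51) were lower, and RBOHD was not called (-0.55). Glutathione S-transferases gave 5 higher and 6 lower of 25, with GSTU4 (1.86) and GSTU25 (-1.20) as the extremes. UPB1, a regulator of peroxidases, was not called (0.68).

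Flavonol enzymes were mostly lower, and phenylpropanoid enzymes in part. Of 12 phenylpropanoid and monolignol genes 1 was higher and 6 were lower, with a median of -0.49, and of 6 flavonol genes 0 were higher and 5 lower, with a median of -1.25. 4CL1, which activates coumarate, was at 11.1 to 26.0 CPM in plt2 and 2.38 to 6.70 CPM in gPLT2 (-2.50, SE 0.27, adjusted p 3.36e-07). TT7, which hydroxylates flavonoids, was at 12.3 to 45.8 CPM in plt2 and 0.40 to 4.65 CPM in gPLT2 (-3.71, SE 0.39, adjusted p 2.32e-07), and F3H was lower by a smaller margin (-1.45, adjusted p 6.04e-06), with a locus on the opposite strand over 94.5% of its length. FAH1, a late enzyme of lignin synthesis, was the one that was higher, at 0.16 CPM on average in plt2, under the limit of 3 counts, and 7.24 CPM in gPLT2. CYP79B2, the first enzyme of indole glucosinolate synthesis, was lower (-1.49, adjusted p 6.72e-06) with 3 others of its list of 6 tested, and MYB51 was higher (1.78), but between 2 and 5 members of this list were called when 1 library was left out. Of 6 stress-induced WRKY factors 3 were lower, WRKY30 (-1.48), WRKY53 (-1.51) and WRKY6 (-0.70).

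Among called genes with at least 20 counts on average and no overlap between the groups, most of the 8 highest values were in genes that plt2 hardly expressed. CLE5, a peptide hormone gene, held 0, 0.56, 0, 0.24 and 0.24 CPM in plt2 and 27.0 to 37.5 CPM (median 34.3) in gPLT2, at least 33.9-fold higher against a limit of 3 counts per library. AT3G01345, of unknown function, was at 63.7 to 125 CPM in gPLT2, at least 87.4-fold higher by the same rule. The pseudogenes AT2G04200 and AT2G04210 were at least 11.8-fold and 9.65-fold higher, and AT4G11210, a dirigent-like locus, was at least 16.0-fold lower. AT4G16563, an aspartyl protease locus, was at 0.28 to 1.19 CPM in plt2 and 19.9 to 37.7 CPM in gPLT2 (5.48, SE 0.32), and LRP1, a gene of lateral root primordia, at 0.32 to 1.97 and 13.2 to 24.6 CPM (3.82, SE 0.27). AT5G64100, a peroxidase locus, was higher but variable, with 8.74 to 79.9 CPM in gPLT2 (5.78, SE 0.65). CLE6, the neighbour of CLE5, was higher by a smaller margin (0.83, adjusted p 0.00272), and CLE13 was lower (-1.49).

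Under the same limits, the 8 lowest values included XTH16, EXLA2, TT7, AT4G11210 and the following loci, while 3 genes of lower counts had fitted values below that of XTH16, namely AT1G10640, AT4G11190 and AT1G17300. AT1G57590, a pectin acetylesterase locus, was at 87.0 to 133 CPM in plt2 and 2.62 to 10.3 CPM in gPLT2 (-4.10, SE 0.20, adjusted p 3.64e-12). AT1G09750, an aspartyl protease locus (-4.01), AT4G11290, a peroxidase locus (-3.77), and AT5G18840, a transporter-like locus (-4.11), had adjusted p of at most 3.57e-08. The smallest adjusted p of the comparison belonged to MLS, malate synthase of the glyoxylate cycle. It held 10.8, 14.7, 15.8, 15.8 and 19.0 CPM in plt2 and 195 to 223 CPM (median 208) in gPLT2, a log2 fold change of 3.73 (SE 0.12, adjusted p 5.74e-15).

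Most of these differences were not called without the peptide. Under mock 405 of 15958 genes (2.54%) were called between the lines, 232 higher and 173 lower in gPLT2, and 2726 had an unadjusted p under 0.05. At 0.3 nM 4969 of 15885 (31.3%) were called, 2272 higher and 2697 lower. Of the 2858 genes higher at 5 nM, 165 (5.77%) were also called higher under mock and 1406 (49.2%) at 0.3 nM. Of the 3331 lower genes, 131 (3.93%) were called lower under mock and 1868 (56.1%) at 0.3 nM. Each treatment has its own libraries of both lines, so these overlaps share no samples. The genes higher at 5 nM had a median log2 fold change of 0.18 under mock and 0.48 at 0.3 nM. For the lower genes these medians were -0.17 and -0.47. The number called under mock ranged from 130 to 1145 with the processing, and 57.3% of the mock calls were higher in gPLT2, but 24.0% under total-count scaling and 38.5% when the model held the mitochondrial share. At 0.3 nM 45.7% were higher, against 66.6% under total-count scaling.

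The difference between treatments was tested directly. The line difference at 5 nM departed from that under mock for 1644 of 16841 genes (9.76%), 576 with a higher and 1068 with a lower value at 5 nM. Against 0.3 nM, 378 of 16749 genes (2.26%) departed, 98 higher and 280 lower, so that 25.9% were higher, or 37.6% with organelle loci left out. Both tests share the 5 nM libraries. Of the genes lower at 5 nM, 981 went further than under mock and 0 less far, and of the higher genes 470 went further and 2 less far. These genes were picked by their 5 nM values, which the interaction also uses. The direction of these counts was thus largely set by the choice of genes.

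For the mitotic genes the line difference was called mainly at 5 nM. Under mock 0 of 26 were called by edgeR (3 at an unadjusted p under 0.05) and 0 by DESeq2, and at 0.3 nM 1 was higher and 2 were lower, with medians of -0.18 and -0.13 beside 0.39 at 5 nM. By the interaction test 11 of 26 were higher at 5 nM than under mock and 4 than at 0.3 nM. CYCB2;3 had an interaction against mock of 0.94 (SE 0.21, adjusted p 0.00447), and SYP111 one of 1.12 (SE 0.23, adjusted p 0.00201). Neither was called against 0.3 nM (adjusted p 0.194 and 0.285). Histone genes were already lower at 0.3 nM, 16 of 19 with a median of -0.95, and 0 differed between doses by edgeR (1 at an unadjusted p under 0.05) or DESeq2. Replication genes were mixed at 0.3 nM, with 4 higher and 4 lower of 22. Under mock 0 of 22 were called, but their median was -0.27, close to the -0.29 at 5 nM. By the interaction against mock 0 were higher and 3 lower, with a median of -0.07.

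SIM and LGO stood out at the high dose. At 0.3 nM the line difference was -0.48 for SIM (adjusted p 0.135) and -0.70 for LGO (adjusted p 0.00584), and under mock it was -0.28 and -0.60. The interaction between doses was -2.50 for SIM (SE 0.36, adjusted p 6.9e-05), -2.65 for LGO (SE 0.32, adjusted p 4.35e-06) and -1.02 for FZR2 (adjusted p 0.000753). Root cap genes were lower at 0.3 nM in 6 of 7 and under mock in 0 (0 also at an unadjusted p under 0.05 and by DESeq2), and 6 of 7 differed between 5 nM and mock. Their summed level under mock was 515 to 1000 CPM in plt2 and 565 to 900 CPM in gPLT2, with full overlap. Cellulose synthesis genes were lower at 0.3 nM in 8 of 9, and 1 of 9 differed between 5 nM and mock.

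**Figure D3:**
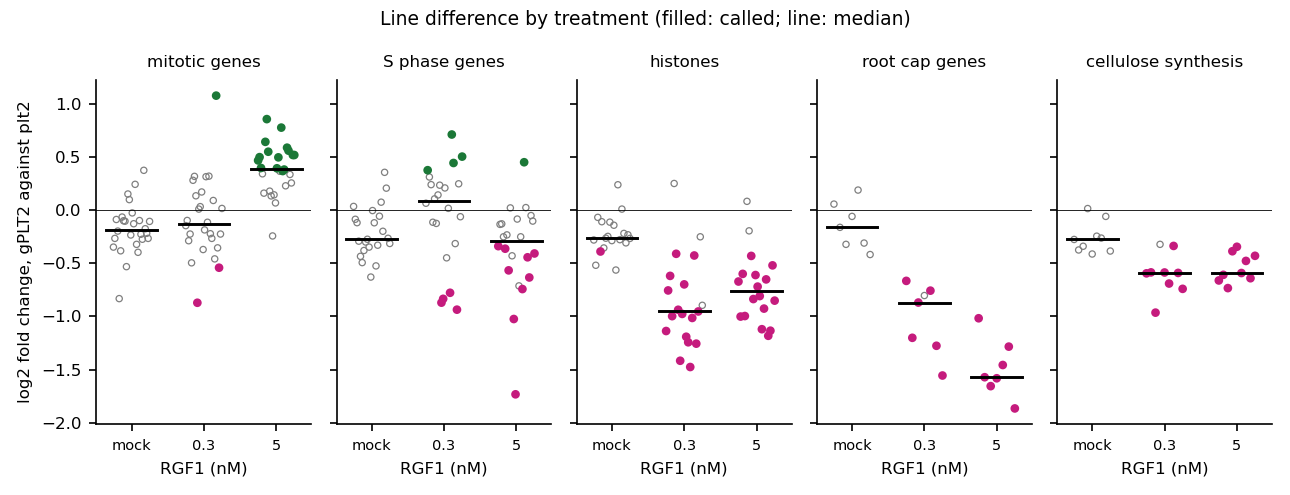
Log2 fold change of gPLT2 against plt2 under mock, 0.3 nM and 5 nM RGF1 for the tested members of 5 gene lists; filled points are called (green higher, magenta lower), open points are not, and the line is the median. The median of the mitotic genes is 0.39 at 5 nM and below 0 in the other treatments, while histone and cellulose synthesis genes are low at both doses.

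The RGF and receptor genes followed different courses. RGF2 and RGF3 were lower at both doses (-2.05 and -2.48 at 0.3 nM). Under mock they had smaller values of the same sign that were not called (-0.60 and -0.58, adjusted p 0.0781 and 0.084). RGF2 was there at 22.3 to 37.8 CPM in plt2 and 14.1 to 23.6 CPM in gPLT2, and RGF3 at 115 to 176 and 62.1 to 112 CPM. Their interactions against mock were -2.08 and -1.90 (adjusted p 1.69e-05 and 0.000152), and neither was called between doses. RGF1 transcripts, which were too low for the test at 5 nM alone, gave an interaction against mock of -2.69 (adjusted p 0.00403). They were called lower at 0.3 nM (-1.62, adjusted p 0.00182), and the interaction between doses was not called (adjusted p 0.662). AT4G26540 was lower by 1.76 on the log2 scale at 5 nM, with a value of -0.56 at 0.3 nM and -0.07 under mock, and its interaction was called against both (-1.22 and -1.67, adjusted p 4.71e-05 and 1.13e-07). AT5G56040 behaved alike, with -1.16, -0.25 and -0.06. AT3G24240 was higher in all treatments (0.93, 1.03 and 0.79), and its interactions were not called (adjusted p 0.541 and 0.801). PLT2 itself had a larger line difference at 5 nM than at 0.3 nM (interaction 0.94, SE 0.26, adjusted p 0.0475), and the test against mock gave 0.66 (adjusted p 0.106). PLT1 was called lower in all treatments (-0.87 under mock, -1.86 at 0.3 nM and -2.01 at 5 nM). Its interaction was called against mock (-1.12, adjusted p 0.00148) but not between doses (adjusted p 0.849).

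A smaller set differed in every treatment, though not always by the same amount. In 66 genes the difference was called and at least 2-fold in the same direction under mock, at 0.3 nM and at 5 nM, 38 higher and 28 lower in gPLT2. ICL, isocitrate lyase, which precedes MLS in the glyoxylate cycle, was at 6.58 to 22.2 CPM in plt2 and 86.1 to 109 CPM in gPLT2 at 5 nM, and its log2 fold changes were 2.82, 3.10 and 2.69 in that order. MLS (2.89, 3.77 and 3.73), the glycolate oxidase GOX2 (2.93, 3.38 and 2.06) and the cold-induced KIN2 (1.90, 2.43 and 2.56) were higher throughout. PAL1, which opens the phenylpropanoid pathway (-2.75, -1.48 and -1.72), and AT5G44925 (-3.97, -3.41 and -3.31) were lower throughout. ICK3 belonged to this set (1.43, 1.07 and 1.42), unlike SIM and LGO. Flavonol genes were lower in 5 of 6 under mock as at both doses.

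**Figure D4:**
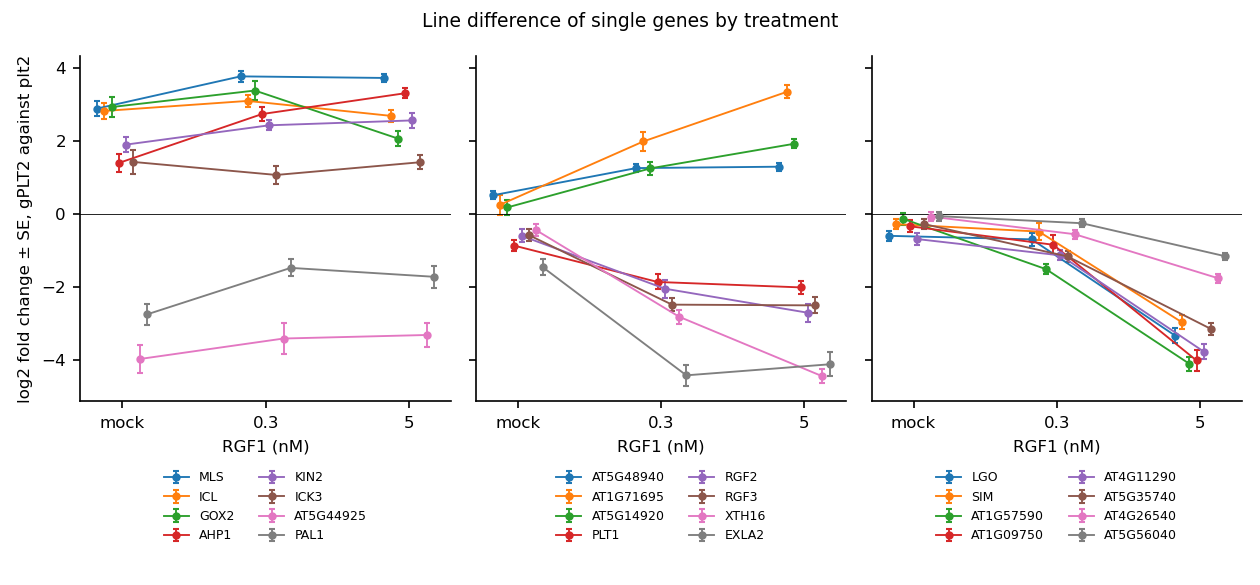
Log2 fold change ± SE of gPLT2 against plt2 under mock, 0.3 nM and 5 nM RGF1 for 24 genes, grouped as those with a difference in each treatment (left), those whose difference is present at both doses (middle) and those with the largest difference at 5 nM (right). The middle group includes AT5G48940, PLT1 and EXLA2, which were also called under mock (0.51, -0.87 and -1.46). MLS lies at 2.89 or more in each treatment, while SIM moves from -0.48 at 0.3 nM to -2.97 at 5 nM.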

How the data were processed

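RNA-seq libraries of dissected meristematic zones were grouped by their labels. The authors deposited whole-number read counts for 36823 loci, and an FPKM table for 25722 loci that was used here only to set genes side by side per length. Per the submitters' processing notes, HISAT2 2.1.0, featureCounts, Subread 2.0.3, DESeq 1.34.0 and the build TAIR10 were used; the notes as held here give no order, parameters or strand setting. Symbols came from RefSeq TAIR10.1, in which 36632 codes were found. Left unmatched were 0 columns of sample values.

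The counts as deposited were tested in R 4.3.3 with edgeR 4.0.16: filterByExpr (minimum count 10), TMM factors, the two-sided quasi-likelihood F test over the 11 libraries of the comparison without covariates, and Benjamini-Hochberg adjustment over all genes tested. A gene is called at an adjusted p under 0.05. Interactions were fitted over the libraries of both treatments. CPM levels leave out 14 loci, ribosomal RNA among them, and are TMM-scaled over all 47 libraries. The limit of 3 counts covers counting error only, since the labels name no molecular identifiers. Replicate libraries differed beyond counting noise (chi-square per degree of freedom 3.2 to 17.77), so each was kept as a sample. On simulated counts with 200 of 15907 genes changed 2-fold, 163 were recovered with 7 false calls. At 5 nM 6189 of 16094 genes (38.5%) were called, and the rate of false calls at such a share was not tested.

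The gene lists (312 members listed by locus code, and families found by symbol, 39 lists in all) and the members were chosen with earlier results of these data known. Genes are named by rule: PLT2; all members of the PLETHORA, RGF and receptor lists; in other lists up to 4 called members with the largest change, at least 20 counts on average and groups that do not overlap; the 8 highest and 8 lowest such genes of all; the 6 smallest adjusted p; 3 genes of each sign for each interaction; and up to 8 genes that differ at least 2-fold in every treatment. Any other gene was named after its values were seen. Of the 140 genes named by this rule 36 are overlapped by another annotated locus. The alternatives tried were DESeq2 1.42.0, its size factors, total-count scaling, no filter, organelle loci left out, all groups in a single fit, the mitochondrial share as a covariate, a replicate block and leaving out each library.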

Additional observations from a re-analysis of the deposited data

Results flagged for a closer look

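Single libraries stood apart in 14 of 272 sets of a group and a measure, where chance alone gives about 5% of such sets. The measures were the CPM of 132 tested genes and 4 library measures, at 5 nM. In plt2, replicate 1 was low for UBP13 (147 CPM) and ICK3 (2.69), replicate 3 was low for CPD (35.6), and replicate 4 was low for TCH4 (3.58) and GSTF6 (3.82) and had the only counts for AT3G01345 (0.478) and AT2G04210 (0.239). In gPLT2, replicate 1 was high for CESA1 (253) and CLE6 (20.9), replicate 2 high for UBP12 (190), replicate 4 low for CYCA3;1 (4.83) and high for ATLP-1 (92.1), and replicate 6 low for LHY (4.78) and high for IAA2 (67.6).

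The line difference departed from that under mock in 1644 genes and from that at 0.3 nM in 378 genes, by the interaction test. Among the named genes, the following log2 values are the line difference at 5 nM minus that under mock. Negative values were found for PLT1 (-1.12), RGF1 (-2.69), RGF2 (-2.08), RGF3 (-1.90), AT4G26540 (-1.67), AT5G56040 (-1.08) and MKK5 (-0.62). LGO (-2.71), SIM (-2.67), FZR2 (-1.23), CEL3 (-1.42), NAC070 (-1.31), NAC015 (-1.38) and CEL5 (-1.62) were negative too, as were XTH16 (-3.98), AT1G57590 (-3.95) and AT5G35740 (-2.84). Positive values were found for AT5G48940 (0.80), AT1G34110 (0.54), AT2G12646 (0.69), CYCB2;3 (0.94), SYP111 (1.12), CYCB2;2 (1.04), LRP1 (3.87), AT1G71695 (3.12) and AT5G14920 (1.76).

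The same difference taken against 0.3 nM was called for PLT2 (0.94), AT4G26540 (-1.22), AT5G56040 (-0.92), LGO (-2.65), SIM (-2.50), FZR2 (-1.02), AT1G57590 (-2.60), AT4G11290 (-2.65), AT5G51490 (-1.95), ATLP-1 (1.27), AT1G77530 (3.22) and SERAT2;1 (0.92).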

How the results depend on the processing

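At 5 nM the number of called genes was 6189, and it ranged from 5495 to 6277 when 1 library was removed. It was 3948 under total-count scaling, which moved the median log2 fold change from 0.02 to 0.10 and the share of higher calls from 46.2% to 52.9%, and the other settings gave 6214 to 6991. Under mock, 405 calls became 694 with DESeq2, 911 without the filter and 1145 in a fit of every group. The interaction against mock gave 651 calls under total-count scaling (median shifted to 0.22) and 1214 to 1779 with 1 library left out. The interaction against 0.3 nM gave 159 under total-count scaling, 616 without the filter and 278 to 397 with 1 library left out. The same scaling shifted the median by -0.17 under mock and 0.17 at 0.3 nM. The causes were not tested. With the replicate block the calls were 6544 at 5 nM, 130 under mock and 5297 at 0.3 nM. The labels do not say what a shared replicate number marks. Deviations of samples with the same number correlated at 0.066, -0.089, 0.073, 0.285 and -0.052, and those of samples with different numbers at -0.262 to 0.266.

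Of the log2 fold changes of named genes at 5 nM, 2474 gene and setting pairs kept direction and call, 20 lost and 2 gained a call, and 12 changed sign, all in uncalled genes. MPK6 was 0.003 with the replicate block, 0.063 under total-count scaling and -0.076 to 0.048 with 1 library left out, and UBP12 was 0.047 under total-count scaling. With 1 library left out AIL5 ranged from -0.023 to 0.319, RGF4 from -0.166 to 0.022 and UBP13 from -0.035 to 0.081. Named calls lost under total-count scaling were RGF8, TPST, YDA, CYCA3;1, PCNA1, DWF1 and SERAT2;1. Depth limits genes near 3 counts per library.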

Other observations

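Circadian clock genes differed at 5 nM, and the labels give no harvest time. Of 14 tested, 6 were higher in gPLT2 and 1 was lower, with a median log2 fold change of 0.24. PRR5 was at 2.87 to 6.64 CPM in plt2 and 8.53 to 16.9 CPM in gPLT2 (1.29, adjusted p 0.000242), and PRR7 at 7.61 to 12.2 and 12.9 to 25.3 CPM (1.04, adjusted p 0.0002). The morning gene LHY was lower (-0.86, adjusted p 0.00166). The interactions against mock and against 0.3 nM were called by edgeR for 0 of 14 clock genes each (2 each at an unadjusted p under 0.05) and by DESeq2 for 0. Heat shock genes gave 0 calls of 5 at 5 nM by edgeR (1 at an unadjusted p under 0.05), 1 by DESeq2 and 4 with the replicate block. Mitochondrial loci gave 0 calls of 42 by edgeR (1 at an unadjusted p under 0.05) and 0 by DESeq2, and plastid loci 3 higher and 9 lower of 102, in all 12 calls, which became 30 without gPLT2 replicate 6 and 58 with the replicate block.

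The 66 genes that differed at least 2-fold in every treatment were spread over the chromosomes, with 13, 6, 20, 12 and 15 on chromosomes 1 to 5. These were 0.622% of the tested genes on chromosome 3 and 0.245% to 0.501% on the others. In the stretch of chromosome 3 from AHP1 to ICK3, chosen after the values were seen, 9 of 190 tested genes (4.74%) belonged to this set, ICL among them. Besides ICL and MLS, the set held a further gene of peroxisomal fatty acid metabolism, KAT5, which was lower (-1.94 at 5 nM), and FUM2, a fumarase (-3.00).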
